A study of Arabidopsis thaliana with 12 samples.

Results

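AT2G18720 encodes a translation factor of *Arabidopsis thaliana*, and AT4G18330 and AT1G04170 are its eukaryotic initiation factor 2 (eIF2) gamma homologues. These 3 loci were listed by name, and 2 of them, AT2G18720 and AT4G18330, have a probe set that the platform table pairs with that gene alone, among 13513 such probe sets of 22746. AT1G04170, which RefSeq names EIF2 GAMMA, has no probe set named here and was not analysed. AT2G18720 was chosen by its signal in these arrays, which was higher in *sahy1* roots than in both wild types, so its values in these comparisons are given as a description with no test. The other loci were listed for their homology to it.

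Root RNA of 12-d-old plants was hybridised to 12 Affymetrix ATH1 GeneChips, on which a gene is represented by a set of short oligonucleotides. There were 4 groups with 3 arrays each. The *sahy1* plants carry a T-DNA insertion in SAHY1 (AT2G01640), a gene for a nucleolar protein. The labels name the mutant without an allele number, and the study's results use the name *sahy1-1* for the line on the arrays, with the insertion in the third exon. Col-0 is labelled as its wild type. The SAHY1OE plants are a single line that overexpresses SAHY1, with Col-7 labelled as its wild type, and the labels give no promoter for it. All groups were grown on basal medium, and the labels name no treatment. The study describes the arrays as biological triplicates. SAHY1 itself had signals from 7.00 to 143 in *sahy1*, from 258 to 451 in Col-0, from 252 to 284 in Col-7 and from 20069 to 20789 in SAHY1OE.

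eIF2 is a complex of alpha, beta and gamma subunits that carries the initiator methionyl-tRNA to the small ribosomal subunit. The gamma subunit is the one that binds GTP and the tRNA. It belongs to the same family of GTPases as elongation factor EF1A, which brings the other tRNAs to the ribosome. The study's list of changed genes calls AT2G18720 an EF1A translation elongation factor, while RefSeq gives it a locus code only. How alike the encoded proteins are was not analysed here.

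AT2G18720 had its highest signal in the mutant roots. The 3 *sahy1* arrays gave MAS5 signals, which are linear intensities, of 165, 160.4 and 188, a mean of 171 ± 14.8 (SD, n = 3). The median signals of these arrays over all probe sets were 199, 195 and 204, so the gene lay below the median on each. In Col-0 the arrays gave 26.8, 11.3 and 29.2, a mean of 22.4 ± 9.70 (SD, n = 3). Every *sahy1* array thus lay above every Col-0 array, as was the case for 14.1% of all probe sets, and likewise above every Col-7 array (12.6% of all). In Col-7 the signals were 13.4, 29.3 and 4.998, a mean of 15.9 ± 12.3 (SD, n = 3). In SAHY1OE they were 2.63, 10.2 and 40.9, a mean of 17.9 ± 20.3 (SD, n = 3). The *sahy1* arrays did not overlap with any other group, and the lowest of them was 3.92 times the highest of the other 9 arrays. A total of 5.04% of all 22746 probe sets had every *sahy1* array above the other 9, and AT2G18720 is one of them by its choice.

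The order of the arithmetic mean signals was *sahy1*, Col-0, SAHY1OE and Col-7. By the mean log2 signal SAHY1OE (3.37) lay below Col-7 (3.65). Col-0, SAHY1OE and Col-7 overlapped with each other. Among these 3 groups the signal ranged from 2.63 to 40.9 with a median of 13.4, a spread that is wide relative to the level. All 9 of these signals lay below the level used to filter low signals, the 40th percentile of each array, which was 110 to 122. The 3 *sahy1* signals lay above it, so the probe set passed the filter through this group alone. Detection calls were not used here, so whether the transcript was present at all in the wild types and in SAHY1OE cannot be stated.

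**Figure D1:**
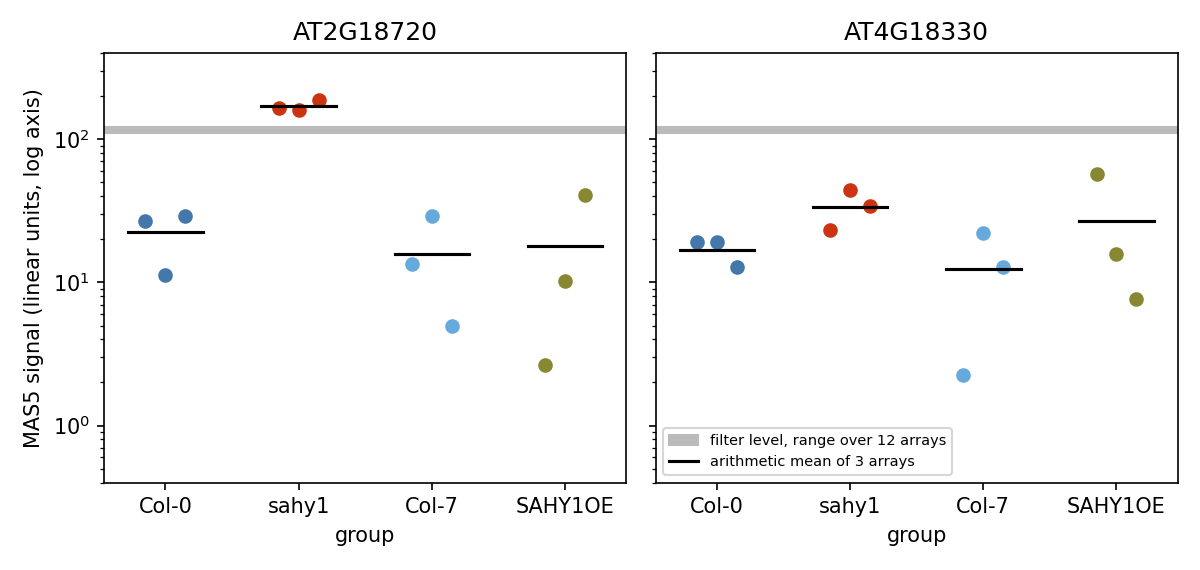
MAS5 signal of AT2G18720 (left) and AT4G18330 (right) on each of 12 arrays, on a log axis, with the group on the x axis, a point for each array and a black line at the arithmetic mean of 3 arrays. The grey band is the range of the filter level over the arrays, and only the 3 *sahy1* points of AT2G18720 lie above it.

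On the log2 scale the signal of AT2G18720 was 3.05 higher in *sahy1* than in Col-0, an 8.26-fold difference, and 3.77 higher than in Col-7, a 13.6-fold difference. These comparisons share the *sahy1* arrays. Among the 13834 probe sets that passed the filter, 2.37% were called higher in *sahy1* than in Col-0 and 1.34% higher than in Col-7, a call being defined by a fold above 2 together with an adjusted p below 0.05 from limma. The size depends on how low signals are treated. After 32 was added to every signal the folds were 3.77 against Col-0 and 4.33 against Col-7. Against Col-7 the log2 difference was 3.11 without Col-7 replicate 3, the lowest array of that group, and 4.38 without Col-7 replicate 2, the highest. In bulk roots, fewer cells that express a gene and less RNA per cell cannot be told apart.

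The signals of AT2G18720 in SAHY1OE and the wild types were all below the filter level, so the differences between these groups are given as values with no p. Between SAHY1OE and Col-7 the log2 difference was -0.28. It was 0.71 without SAHY1OE replicate 1 and -1.28 without SAHY1OE replicate 3. Between Col-7 and Col-0 the log2 difference was -0.72. It was -0.06 without Col-7 replicate 3 and -1.34 without Col-7 replicate 2. The size of both differences thus depended on single arrays, as did the sign of the first.

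AT4G18330 had a low signal in all groups. The arrays gave 19.0, 19.1 and 12.7 in Col-0, a mean of 16.9 ± 3.65 (SD, n = 3). In *sahy1* they gave 23.1, 44.4 and 34.0, a mean of 33.8 ± 10.7 (SD, n = 3). Those of Col-7 were 2.25, 22.1 and 12.9, a mean of 12.4 ± 9.95 (SD, n = 3). The SAHY1OE arrays, at 57.5, 15.8 and 7.61, had a mean of 27.0 ± 26.7 (SD, n = 3) and covered nearly the whole range of the other groups. No array reached the filter level, so this homologue was not part of the tests on the filtered probe sets.

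The *sahy1* arrays of AT4G18330 lay above all Col-0 and all Col-7 arrays, with differences of the mean log2 signals of 0.97 and 1.92. Among probe sets under 100 on every array, 7.72% had this order against Col-0 and 6.97% against Col-7. In a fit without the filter neither difference passed (limma adjusted p = 0.632 against Col-0 and 0.287 against Col-7), where 1.6% and 0.752% of all probe sets were called higher. The 95% confidence intervals were -1.03 to 2.97 and -0.08 to 3.92. The value against Col-7 was 0.95 without Col-7 replicate 1, whose signal was 2.25, and after adding 32 to the signals the folds were 1.34 and 1.49. In the same fit SAHY1OE and Col-7 gave a log2 value of 1.14 (limma adjusted p = 0.993), with 0.0% of probe sets called higher. Col-7 and Col-0 gave -0.95 (limma adjusted p = 0.786), where 0.778% of all 22746 probe sets were called higher in Col-7 and 57 lower. Both log2 values rest on single arrays. The first was 0.17 without Col-7 replicate 1 and 1.82 without Col-7 replicate 2, and the second was 0.02 and -1.63 without these arrays. The fit without the filter did not call SAHY1 itself between SAHY1OE and Col-7, at 77.3-fold (limma adjusted p = 0.187). Nor did it call the fall of SAHY1 in *sahy1* (limma adjusted p = 0.0788 against Col-0 and 0.131 against Col-7). This fit thus could not decide whether AT4G18330 differed between the groups.

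The other subunits of eIF2 showed no called difference in *sahy1* roots. Of 5 alpha and beta genes 3 have a named probe set. AT2G40290, an alpha subunit gene, gave 1344, 1470 and 1513 in Col-0, 1808, 1551 and 1667 in *sahy1*, 1408, 1239 and 1445 in Col-7, and 1540, 1571 and 1516 in SAHY1OE. Its *sahy1* arrays lay above those of Col-0 and of Col-7, as was the case for 14.1% and 12.6% of all probe sets. Between SAHY1OE and Col-7 its log2 fold change was 0.18, without a call (limma adjusted p = 0.9999). The log2 fold change of AT2G40290 in *sahy1* was 0.21 against Col-0 and 0.30 against Col-7 (limma adjusted p = 0.246 and 0.106). The beta subunit homologue AT5G01940 had means of 113 ± 24.95 in Col-0, 156 ± 32.9 in *sahy1*, 127 ± 25.15 in Col-7 and 158 ± 18.7 in SAHY1OE (SD, n = 3 each). The *sahy1* arrays overlapped with those of both wild types, and the SAHY1OE arrays with those of Col-7. The log2 fold change of AT5G01940 in *sahy1* was 0.46 against Col-0 and 0.29 against Col-7 (limma adjusted p = 0.154 and 0.385). AT3G07920, also related to the beta subunit, had signals from 3.85 to 38.5 over the 12 arrays and did not reach the filter level.

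Genes that act with eIF2 in translation were compared as groups. These were eIF2B, which reloads eIF2 with GTP, the GCN2 pathway, which phosphorylates eIF2 alpha under stress, the initiation factors eIF1, eIF1A, eIF5, eIF5B and eIF3, the elongation factors, and other GTPases of the EF-Tu family. With the alpha and beta subunits they made 62 loci, of which 28 have a named probe set and 24 passed the filter. Some groups were barely covered, with a named probe set for 1 of 3 GCN2 pathway loci, 2 of 15 eIF3 loci and 2 of 11 elongation factor loci. None of the 24 was called in *sahy1* against Col-0, either in the limma fit or with the methods' unpaired test (3 positive values and 1 negative in limma at unadjusted p below 0.05), where 4.13% of all probe sets were called. Against Col-7 none was called by these tests either (6 positive values and 2 negative in limma at unadjusted p below 0.05), where 2.36% of all were called. Their median log2 fold change was 0.15 against Col-0 and 0.17 against Col-7, beside 0.00 and 0.01 over all probe sets kept. The range was from -0.38 to 0.82 and from -0.68 to 0.55, so AT2G18720 lay outside both ranges, by the choice of the gene.

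Of 11 eIF2B genes 5 were kept, with log2 fold changes from -0.19 to 0.29 against Col-0 and from -0.10 to 0.50 against Col-7. Both measured eIF3 genes, the eIF3d genes AT4G20980 and AT5G44320, had positive values in both comparisons (0.21 and 0.32 against Col-0) without a call. The elongation factor genes measured, AT5G12110 and AT5G19510, encode eEF1B subunits, and their values lay between -0.09 and 0.07 in the comparisons of *sahy1* with the wild types. None of the 4 EF1A genes in the list has a named probe set, so AT2G18720 could not be set beside them. Among the other GTPases, AT1G18070, which encodes the release factor eRF3, was higher in *sahy1* than in Col-7 by 0.46 on the log2 scale (limma adjusted p = 0.0327, under 2-fold), and its value against Col-0 was 0.20 (limma adjusted p = 0.350). Of all probe sets kept, 6.22% were higher than in Col-7 at an adjusted p below 0.05 and any fold.

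**Figure D2:**
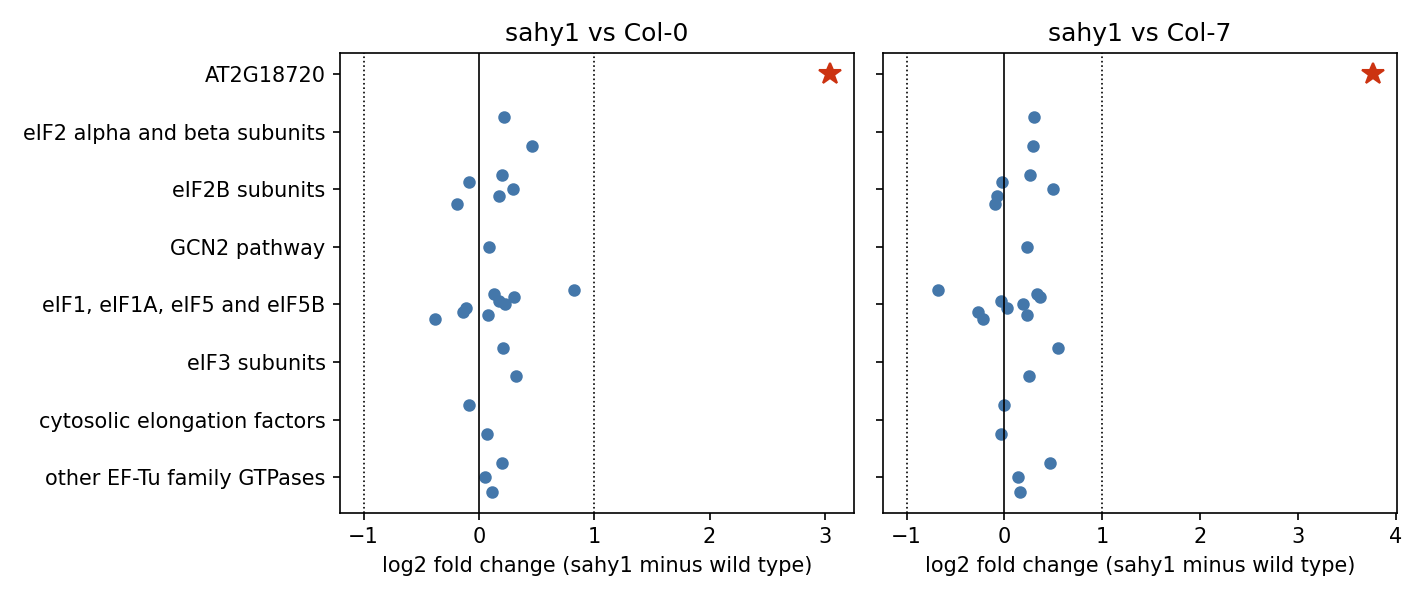
Log2 fold change of *sahy1* against Col-0 (left) and Col-7 (right) for AT2G18720 (star) and for 24 translation factor genes (points), with the gene group on the y axis. The dotted lines mark a 2-fold difference, and all 24 points lie between them while the star lies at 3.05 and 3.77.

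One of these genes, AT1G21160, was called between the wild types by limma, where 1.81% of all probe sets were called. The methods' unpaired test did not call it. AT1G21160 is a homologue of eIF5B, the GTPase that joins the ribosomal subunits. Its signals were 84.1, 64.6 and 76.1 in Col-0, 126, 112 and 162 in *sahy1*, 213, 192 and 231 in Col-7, and 200.1, 181 and 199 in SAHY1OE. All *sahy1* arrays lay between those of the wild types. Col-7 exceeded Col-0 by 2.84-fold (limma adjusted p = 2.87e-05), where 1.27% of probe sets were called higher, whereas *sahy1* was 1.77-fold higher than Col-0 and 1.60-fold lower than Col-7 (limma adjusted p = 0.00206 and 0.0106, both under 2-fold). At an adjusted p below 0.05 and any fold, 7.7% of probe sets rose against Col-0 and 6.69% fell against Col-7. Its direction in the mutant thus depended on the wild type used. No gene of the groups was called between SAHY1OE and Col-7 by limma or the methods' unpaired test (limma, 0 at an unadjusted p under 0.05), where 0.0217% of all probe sets were called.

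The pattern of AT2G18720 over the 12 arrays was compared with 7468 other genes that passed the filter with 1 named gene per probe set. The measure was Pearson's r of the log2 signals, and the points share the arrays and the difference of *sahy1* from the rest. The gene most like it was NRPA2 (AT1G29940), the second-largest subunit of RNA polymerase I, which transcribes the pre-rRNA, with r = 0.94 and Spearman's rho = 0.85. Its signal was 913 ± 45.2 in *sahy1*, 703 ± 41.0 in Col-0, 693 ± 4.57 in Col-7 and 680.3 ± 96.8 in SAHY1OE (SD, n = 3 each). The amplitude was much smaller than that of AT2G18720, with a log2 difference of 0.38 between *sahy1* and Col-0.

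The other 4 were AT3G54750 (r = 0.92), AT5G58610 (r = 0.91), AT5G65880 (r = 0.91) and AT5G11420 (r = 0.91). AT5G58610 was alone among the 5 in an amplitude near that of AT2G18720. Its signals were 28.9, 16.4 and 46.4 in Col-0, 164, 158 and 191 in *sahy1*, 24.99, 33.4 and 28.3 in Col-7, and 2.64, 30.6 and 28.6 in SAHY1OE. They were highest in the mutant, with log2 differences of 2.60 against Col-0 and 2.57 against Col-7. Outside *sahy1* all signals of AT5G58610 lay below the filter level, so it too passed the filter through *sahy1* alone. For the other 3 the log2 difference of *sahy1* from Col-0 lay between 0.28 and 0.61. The next gene in this ranking had r = 0.90, so the list of 5 has no sharp end. SAHY1OE replicate 1 was the lowest array for AT2G18720, at 2.63, and for each of the 5 genes except AT5G65880. How far the ranking rests on this array was not tested.

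**Figure D3:**
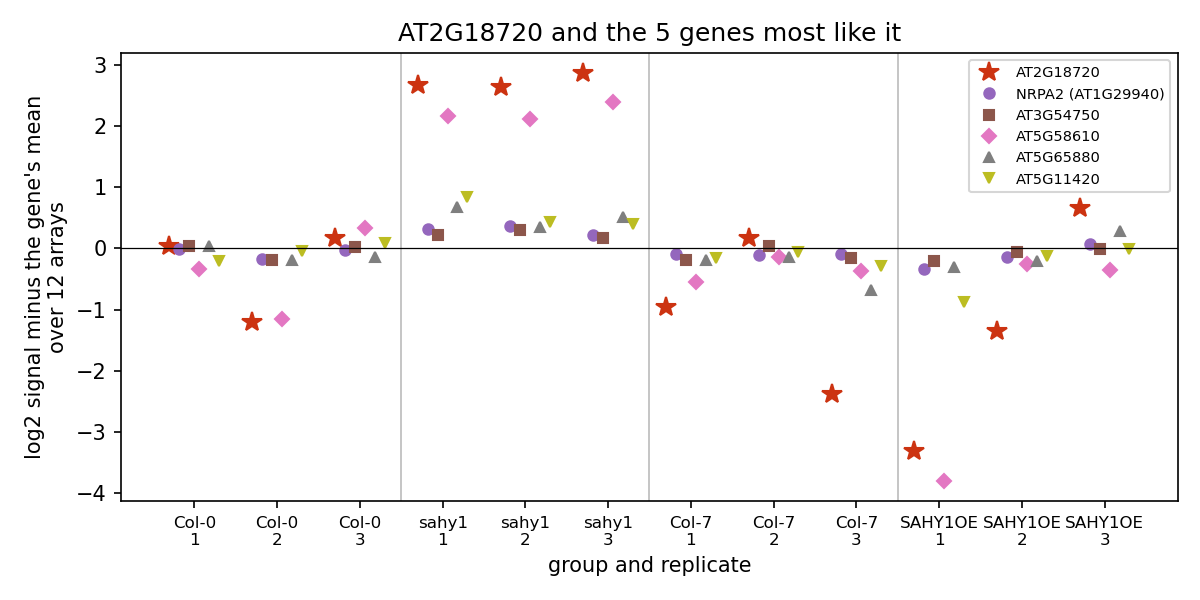
Log2 signal minus the gene's own mean over 12 arrays (y axis) by group and replicate (x axis) for AT2G18720 and the 5 genes with the highest Pearson's r to it. The *sahy1* points are above 0 for all 6 genes, and AT2G18720 and AT5G58610 have the widest range.

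The genes next to AT2G18720 on chromosome 2 were compared with it. Of the 5 locus numbers on each side, AT2G18670, AT2G18690, AT2G18740, AT2G18750 and AT2G18770 have a named probe set, and all 5 passed the filter. None was called in *sahy1* against Col-0 or against Col-7 in either test (0 positive values and 2 negative in limma at unadjusted p below 0.05 in each). Limma called 4.13% and 2.36% of all probe sets in these comparisons, so 5 genes are too few to differ from that share. Their log2 fold changes ranged from -0.96 to 0.17 against Col-0 and from -0.54 to 0.18 against Col-7. AT2G18670 fell by 0.54 on the log2 scale against Col-7 (limma adjusted p = 0.0313, under 2-fold), beside 6.69% of probe sets lower at any fold.

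AT2G18690 differed between the wild types, with 2176, 2111 and 2433 in Col-0 and 1135, 1351 and 872 in Col-7 (log2 fold change -1.02, limma adjusted p = 0.00394), where 0.535% of probe sets were called lower. The methods' unpaired test called no measured neighbour between the wild types. In *sahy1* AT2G18690 gave 1008, 1235 and 1224, within the range of Col-7. Its log2 fold change was -0.96 against Col-0 (limma adjusted p = 0.00267, under 2-fold, beside 7.32% of probe sets lower at any fold) and 0.06 against Col-7 (limma adjusted p = 0.857). AT2G18720, 3 locus numbers further on, had overlapping signals in both wild types. RefSeq lists a further gene, AT2G18721, whose span overlaps that of AT2G18720. The positions of the probes were not determined, so signal from it cannot be told apart here.

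**Figure D4:**
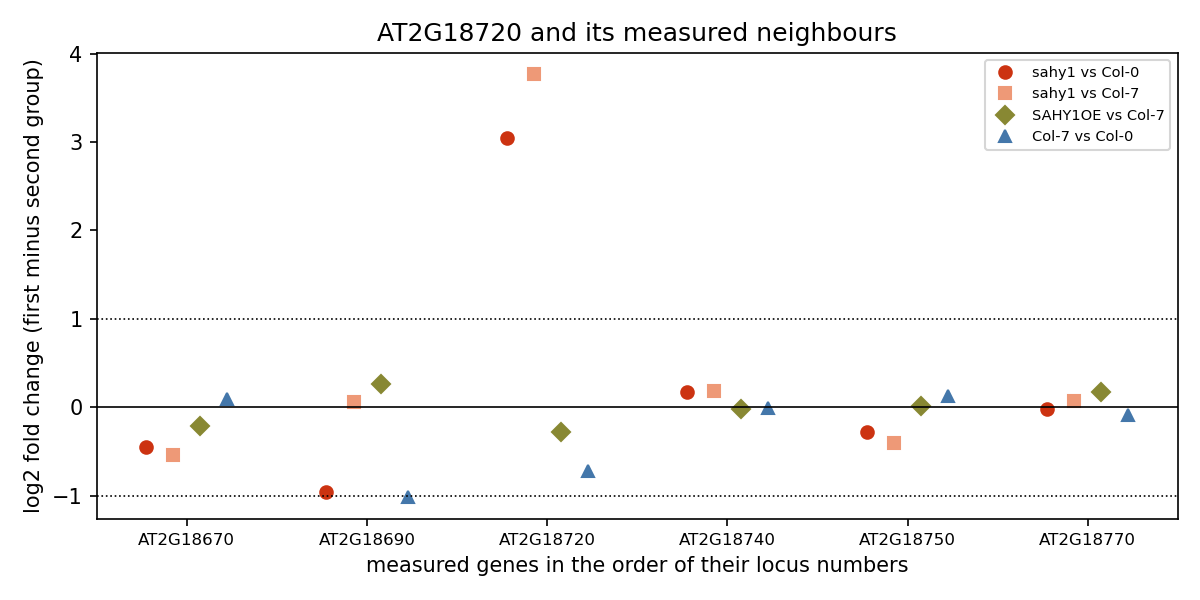
Log2 fold change (y axis) in 4 comparisons for AT2G18720 and its 5 measured neighbours in the order of their locus numbers (x axis). The dotted lines mark a 2-fold difference, and apart from AT2G18720 in the *sahy1* comparisons the only point beyond them is AT2G18690 between the wild types, at -1.02.

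Tissue markers were measured in part. Of 11 root markers 3 have a named probe set, and none was at 0. Their summed signal was 18272 to 20112 in *sahy1*, 19225 to 21410.3 in Col-0, 20104 to 26756 in Col-7 and 19839.5 to 21115 in SAHY1OE, most of it from PYK10, a beta-glucosidase of roots. The root hair expansins EXPA7 and EXPA18 fell in *sahy1*, where AT2G18720 was higher. The falls were 1.05 and 1.19 on the log2 scale against Col-0 (limma adjusted p = 0.000593 and 0.000102). Against Col-7 they were 1.16 and 1.11 (limma adjusted p = 0.000568 and 0.000432). Of all probe sets kept, limma called 1.76% lower than in Col-0 and 1.02% lower than in Col-7. The methods' unpaired test called 1 of the 3 root markers against Col-0 and 0 against Col-7. PYK10 was not called, with log2 fold changes of -0.06 against Col-0 and -0.20 against Col-7 (limma adjusted p = 0.807 and 0.335). Of 10 shoot markers 1 has a named probe set, RCA, whose signal was 859 to 1012 in *sahy1* beside 823 to 883 in Col-0 and 1063 to 1164 in Col-7. None of 7 markers of root tips and dividing cells has a named probe set. The part of cell composition in the level of AT2G18720 was not tested.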

How the data were processed

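The authors deposited MAS5 signal intensities of ATH1 GeneChips on a linear scale, and from the values each array was scaled to a trimmed mean of 500. GeneSpring GX 10.0.1 is named in the series description, and the MAS5 version and a genome build are not given in the sources used here. After 64 control probe sets were left out of 22810, signals under 1 (46 to 333 per array) were set to 1 and log2 was taken. The filter on low signals required that in 1 or more groups every array was at or above its own 40th percentile, which left 13834 probe sets. limma 3.58.1 (R 4.3.3) was used to fit 4 group means to 12 arrays, p-values were adjusted by Benjamini-Hochberg over the probe sets left, and the procedure was checked on simulated data. Depth does not apply to arrays, and 3 arrays per group limit the precision. Probe sets were named through the platform table and the RefSeq table (assembly TAIR10.1), with 13513 paired with 1 gene, 503 with several and 8730 with none. The members and lists were chosen with earlier results of these data known. The text names the members, listed translation factors that were called in any comparison, the eIF2 alpha and beta genes, the 5 genes most like AT2G18720 by Pearson's r and the measured neighbours. AT1G18070, the eIF3 and elongation factor genes and AT2G18721 were named after their values or places were seen. Same-numbered arrays had r from -0.02 to 0.23 in *sahy1* against Col-0 and from -0.10 to 0.09 against Col-7. All were positive in SAHY1OE against Col-7 (0.06 to 0.23) and in Col-7 against Col-0 (0.04 to 0.24). Replicate numbers were not taken as pairs in the main fit, and counts with the replicate number as a block are given below. Tables and figures used Python 3.11.15, pandas 2.3.3 and matplotlib 3.10.9. Protein and promoter sequences, raw images and detection calls were not analysed here.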

Additional observations from a re-analysis of the deposited data

How the results depend on the processing

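Over the alternatives run, the log2 fold changes of AT2G18720 in *sahy1* ranged from 1.91 to 3.29 against Col-0 and from 2.11 to 4.38 against Col-7. The lowest value of each came from adding 32 before log2. That all are positive is no support, since the gene was chosen for its higher signal in *sahy1*. AT2G18720 did not pass the filter at the 60th percentile, and AT4G18330 passed neither filter. The values of AT4G18330 in *sahy1* fell to 0.42 against Col-0 and 0.58 against Col-7 after adding 32. Signals this near to background limit the size of any fold.

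The number of probe sets called was 572 in *sahy1* against Col-0, 327 against Col-7, 3 in SAHY1OE against Col-7 and 250 in Col-7 against Col-0. It was 330, 179 and 147 for the first, second and last of these with the filter at the 60th percentile, which tests fewer probe sets, and 285, 46, 1 and 25 with the methods' unpaired test. For SAHY1OE it was 1 in a fit to the 2 groups alone and 0 with no filter (limma, 1120 at an unadjusted p under 0.05, and 1 by the methods' unpaired test on the filtered probe sets). The cause of the lower counts other than that of the filter was not tested. Leaving out each array in turn gave 532 to 635, 292 to 384, 2 to 4 and 232 to 270. With the replicate number as a block the counts were 575, 330, 3 and 257.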
